A study of Mus musculus with 6 samples.

Results

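Macrophages display ligands and receptors that raise or restrain the response of T cells and of other macrophages, and 10 of these genes were followed across 6 libraries of mouse bone marrow-derived macrophages (BMDMs). The genes were chosen by symbol: the PD-1 ligands Cd274 and Pdcd1lg2, the B7 costimulators Cd80, Cd86 and Icosl, the TNF receptor family member Cd40, the TIM-3 gene Havcr2 with the galectin Lgals9, and the inhibitory receptors Cd200r1 and Sirpa. All 10 had 1 row each among the 54446 gene rows of the deposited count table, of which 14917 rows reached 10 counts in 1 or more libraries. The cells came from bone marrow of male BALB/c mice aged 6 to 8 weeks and were grown for 7 days in 20% L929-conditioned medium, a source of CSF-1. M0 cells received no polarizing cytokine, M1 cells received LPS at 50 ng/mL together with IFN-γ at 20 ng/mL, and M2 cells received IL4 at 20 ng/mL, with polarization for 24 h. In each state one culture received regorafenib (1 µM), a multikinase inhibitor, and the other the vehicle DMSO. In M1 and M2 regorafenib was given 1 h before the polarizing agents. Each condition had 1 library, and the labels do not say whether the libraries came from separate animals, so no difference within a state has a replicate check. BMDMs made in this way are a culture model of macrophages. The comparisons ask how polarization moved these genes and whether regorafenib moved them in each state.

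T cells are activated when a signal through the T cell receptor is joined by costimulation. CD80 and CD86 on the antigen-presenting cell bind CD28, which activates, and CTLA-4, which inhibits, and the ICOS ligand binds ICOS on activated T cells. PD-L1 (Cd274) and PD-L2 (Pdcd1lg2) bind PD-1 and restrain T cells. CD40 receives the CD40 ligand of T helper cells and signals through TRAF adaptors and NF-κB. TIM-3 is an inhibitory receptor that binds galectin-9 among other ligands, the CD200 receptor restrains myeloid cells through DOK adaptors, and SIRPα binds CD47, the "don't eat me" signal, and recruits the phosphatases SHP-1 and SHP-2. In macrophages, IFN-γ with LPS is known to induce PD-L1 and CD40, and IL4 is known to induce PD-L2.

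Levels are given as CPM (counts scaled to a common library size) after TMM scaling, which corrects library size for composition. A pair of libraries was called higher or lower for a gene when 1 of them had at least 10 counts and they were 2-fold or more apart. Such a call describes that pair of libraries. Intervals are 95% conditional exact binomial intervals of the log2 ratio and cover counting error only. The libraries held 25359309 to 34898342 counts.

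With regorafenib, 6 of the 10 genes were called in at least 1 state. In M0, Cd40, Havcr2 and Lgals9 were called lower and no member was called higher, among 9 members that reached 10 counts. The background in that pair was 9.47% of 13964 genes called higher and 10.9% called lower. In M1, Icosl alone was called higher and no member was called lower among 9, against 1.76% of 13440 genes called higher and 3.46% called lower. In M2, Pdcd1lg2 was called higher and Cd80, Cd40, Havcr2 and Lgals9 were called lower among 10, against 6.15% of 13813 genes called higher and 5.07% called lower. The median log2 ratio of the members was -0.28 in M0, 0.03 in M1 and -0.24 in M2, beside medians over all genes of 0.00, -0.02 and -0.03. Cd274, Cd86, Cd200r1 and Sirpa were called in no state with regorafenib.

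**Figure D1:**
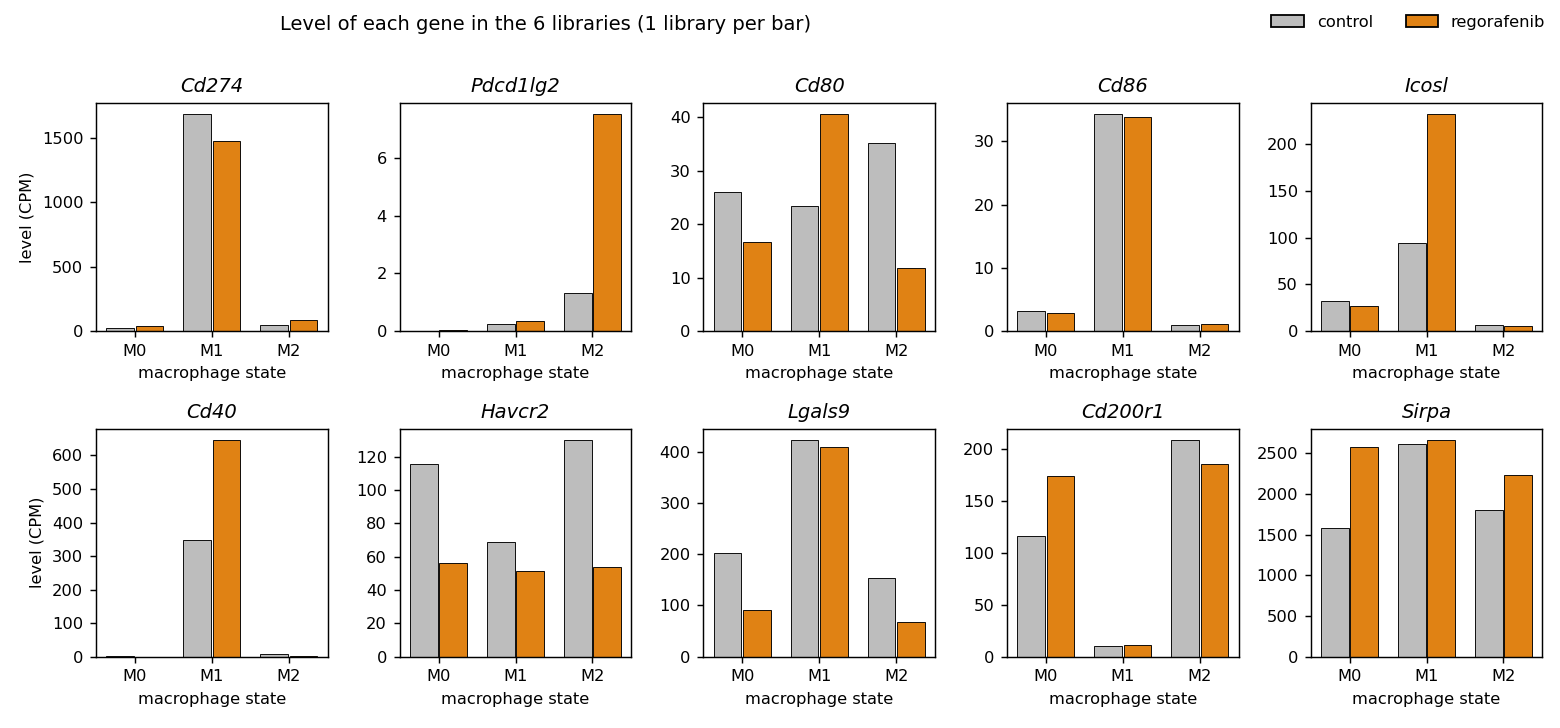
Level of each of the 10 genes in CPM after TMM scaling (vertical axis, linear and with its own range in each panel) in M0, M1 and M2, for control (grey) and regorafenib (orange). Each bar is 1 library, so there is no error bar. Cd274, Cd40, Cd86 and Icosl stand highest in M1, Pdcd1lg2 in M2, and Havcr2 and Lgals9 are lower with regorafenib in M0 and M2.

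Most of the members differed by 2-fold or more between M1 and M0. Without regorafenib 5 members were called higher and 1 lower in M1 among 9 with counts, against a background of 17.4% of 14168 genes called higher and 19.7% called lower. With regorafenib 6 were called higher and 1 lower, against 16.3% and 21.6% of 14159 genes. The member median was 1.06 without and 2.16 with regorafenib on the log2 scale, beside -0.05 and -0.09 over all genes. In M2 without regorafenib 3 members were called higher and 2 lower among 10, against 4.69% and 7.61% of 13830 genes, and the member median was 0.31 beside 0.01. With regorafenib the members were again 3 higher and 2 lower, against 4.41% and 5.18% of 13841 genes, with medians of -0.14 and -0.03. The M1 and M2 ratios of one treatment share their M0 library.

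The 6 libraries were also fitted together with the quasi-likelihood test of edgeR, in which state and treatment were additive terms. Its residual has 2 degrees of freedom and holds the difference between states in their response together with any spread between cultures, which cannot be told apart here. For M1 against M0, 6 members rose and 1 fell at a Benjamini-Hochberg adjusted p under 0.05, where 18.5% of 14110 genes rose and 18.2% fell. One of the 6, Pdcd1lg2, had under 10 counts in all M0 and M1 libraries. For M2 against M0, 0 members passed in edgeR, where 0.198% of genes did, 4 members had an unadjusted p under 0.05, as did 9.28% of genes, and DESeq2 called 4 (Cd274 and Pdcd1lg2 higher, Cd86 and Icosl lower) and 416 genes in all. For regorafenib across the states 0 members passed in edgeR, where 0.0% of genes did. That is 0 of 14110 genes, with 1637 at an unadjusted p under 0.05 and 301 called by DESeq2. Of the members, Havcr2, Lgals9 and Pdcd1lg2 had an unadjusted p under 0.05 and DESeq2 called 1, Havcr2.

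The macrophage markers Adgre1, Csf1r, Cd68, Itgam, Fcgr1, Mertk and Lyz2 had counts in every library, with 41775 to 101392 counts of Csf1r, the receptor of CSF-1. Of 8 T and NK cell markers, 5 (Cd3d, Cd3e, Cd3g, Cd8a and Ncr1) were at 0 in all 6 libraries and the list summed to at most 22 counts. The 5 B cell markers summed to at most 7 counts with 2 at 0, and 3 of 4 mast cell and basophil markers were at 0. Ly6g, a defining neutrophil gene, was at 0, while the 7 neutrophil and precursor markers summed to 84.8 CPM in M0 control, 158 in M0 with regorafenib, 157 and 110 in the M1 pair, and 89.0 and 133 in the M2 pair. Mpo had 2479 and 5124 counts in the M0 pair. S100a8 had 123 counts in M0 control and 91 in M0 with regorafenib, and 1804 and 489 in the M1 pair. Camp had 0 and 1 counts in the M0 pair and 108 and 91 in the M1 pair. The 5 fibroblast markers summed to 10.2 CPM in M0 control and 21.8 with regorafenib, 24.3 and 31.4 in the M1 pair, and 9.61 and 18.8 in the M2 pair. In M0 control and with regorafenib Col1a1 had 37 and 114 counts and Col1a2 46 and 188. In M1 control and with regorafenib Pdgfrb had 404 and 599 counts, Dcn 100 and 39, Col1a1 55 and 54, and Col1a2 65 and 64. The 8 dendritic cell markers summed to 10.9 to 341 CPM, of which Itgax made up most in M2 and Ccr7 in M1, while Flt3 and Clec9a had at most 3 counts in any library. Within M1, Xcr1 had 36 counts in control and 102 with regorafenib, and Itgax 439 and 669. Ccr7 had 780 and 827 counts in that pair, Zbtb46 9 and 5, and Flt3 3 and 2. Of the 8 markers, 3 reached 10 counts there, of which 1 was called higher and 0 lower, against 1.76% and 3.46% of all genes. Icosl was called higher in the same pair. The part of other cells in the results below was not tested, and in bulk RNA fewer cells of a type and less RNA per cell cannot be told apart.

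The PD-1 ligands Cd274 and Pdcd1lg2 both lie on the plus strand of chromosome 19, and each was highest in a different state. Cd274 (ENSMUSG00000016496.7, GRCm38 chr19:29367455-29388095) stood at 25 CPM in M0 control, 35.3 in M0 with regorafenib, 1685 in M1 control, 1477 in M1 with regorafenib, 50.1 in M2 control and 83.7 in M2 with regorafenib. Both M1 libraries lay above all others, and both M2 libraries lay above both M0 libraries. M1 over M0 was 6.07 on the log2 scale without regorafenib and 5.39 with it. In edgeR, Cd274 rose in M1 by a log2 value of 5.81 (adjusted p = 0.00039). M2 over M0 was 1.0 (0.88 to 1.13) without regorafenib and 1.25 with it. The first of these sits at the 2-fold threshold, and RLE scaling gave 0.99.

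Regorafenib had opposite signs on Cd274 by state. With regorafenib the log2 ratio to control was 0.50 (0.36 to 0.63) in M0 and 0.74 (0.65 to 0.83) in M2, but -0.19 (-0.21 to -0.17) in M1. All 3 intervals exclude 0, and all 3 ratios are below the 2-fold threshold. The ratio in M1 was lower than that in M2 by -0.93 (-1.02 to -0.84), an interval of counting error. In edgeR across the states the log2 value was 0.36 (adjusted p = 0.493). Cd274 shares 511 exon bases with the antisense gene AC119228.1, and which strand column the counts were taken from is not stated, so reads of that gene could not be separated here.

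Pdcd1lg2 (ENSMUSG00000016498.9, chr19:29410919-29471161) was the scarcest member in M0 and M1. It had 0 counts in M0 control, 1 in M0 with regorafenib, 6 in M1 control, 8 in M1 with regorafenib, 48 in M2 control and 211 in M2 with regorafenib. The M2 libraries lay above every other library. Without regorafenib the M2 level was 13.5-fold that in M0 when the M0 library was set at a floor of 3 counts. The interval of that log2 ratio began at 3.40 and had no upper end. With regorafenib M2 over M0 was 7.96 on the log2 scale (5.46 to 13.27), from 211 counts against 1. In M1 the 6 counts against 0 in M0 were 2.38-fold apart when M0 was set at the floor of 3 counts. The interval of their log2 ratio began at 0.49, and the counts were too few for a call. In edgeR the log2 value in M1 was 4.11 (adjusted p = 0.0333) from at most 8 counts in a library. That edgeR call was lost without the treatment term (adjusted p = 0.12, with a range of 0.00582 to 0.12 over 4 alternatives). In M2 the edgeR log2 value was 7.71 (adjusted p = 0.0534), and the range over 4 alternatives was 7.57e-06 to 0.229.

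Within M2, Pdcd1lg2 stood at 1.31 CPM in control and 7.54 CPM with regorafenib, 5.74-fold higher (log2 2.52, 2.06 to 3.0, and 1.88 with 1 CPM added). In M1 the log2 ratio was 0.52 (-1.20 to 2.32) from 8 counts against 6, and in M0 both libraries were at or under the floor. The dendritic cell marker Itgax moved the same way in M2, from 5849 counts in control to 9449 with regorafenib. Zbtb46, a dendritic cell transcription factor, had 15 and 59 counts, while Flt3, Xcr1 and Clec9a had at most 2. Their part in the Pdcd1lg2 result was not tested. An antisense gene that overlaps Pdcd1lg2, A930007I19Rik, shares 0 exon bases with it and had 22 and 31 counts in M2.

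The promoters of these ligands are shown because the genes peaked in opposite polarized states, with that of Lgals9, a member lower with regorafenib in M0 and M2. Each is the 250 bases before the RefSeq start on GRCm38.p6, read on the gene's strand, at chr19:29367188-29367437 (plus strand) for Cd274, chr19:29410669-29410918 (plus strand) for Pdcd1lg2 and chr11:78984925-78985174 (minus strand) for Lgals9. Capitals mark every match to 3 motifs searched on both strands, and none of the matches overlap.
Cd274: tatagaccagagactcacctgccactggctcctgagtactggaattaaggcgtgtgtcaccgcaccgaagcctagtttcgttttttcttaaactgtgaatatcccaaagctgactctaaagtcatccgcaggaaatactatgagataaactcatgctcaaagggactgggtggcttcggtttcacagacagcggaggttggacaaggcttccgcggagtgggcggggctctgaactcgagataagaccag
Pdcd1lg2: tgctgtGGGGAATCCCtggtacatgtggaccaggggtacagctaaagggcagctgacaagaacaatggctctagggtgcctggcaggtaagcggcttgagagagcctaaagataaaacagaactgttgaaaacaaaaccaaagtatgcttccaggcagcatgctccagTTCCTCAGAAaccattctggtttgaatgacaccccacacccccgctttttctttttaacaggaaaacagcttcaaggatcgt
Lgals9: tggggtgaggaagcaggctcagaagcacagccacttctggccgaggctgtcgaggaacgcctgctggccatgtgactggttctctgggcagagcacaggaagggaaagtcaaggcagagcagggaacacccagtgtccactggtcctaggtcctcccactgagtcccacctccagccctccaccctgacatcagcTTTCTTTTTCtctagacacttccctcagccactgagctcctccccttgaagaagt

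The motifs were the STAT6-type palindrome TTCNNNNGAA, an IRF-type repeat GAAANNGAAA and the NF-κB consensus motif. In Pdcd1lg2 the STAT6-type palindrome, TTCCTCAGAA, lies at -82 to -73 from the start, and 5.85% of 32851 promoters hold one in the same 250 bases. An NF-κB match, GGGGAATCCC, lies at -244 to -235, and 3.9% of promoters hold one. In Lgals9 an IRF-type match lies at -55 to -46, reading TTTCTTTTTC on the gene's strand, and 2.98% of promoters hold one. The Cd274 stretch has no match to any of the 3, which says only that these letters are not in this window. Of the other members, Cd80, Havcr2 and Icosl had an entry and no match, and Cd86, Cd40, Cd200r1 and Sirpa were not analysed here. These matches are letters in a sequence, and binding was not measured.

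The B7 costimulators Cd80 and Cd86, which bind the same receptors on T cells, followed different patterns. Cd80 (ENSMUSG00000075122.5, chr16:38455561-38496335, plus strand) stood at 26 CPM in M0 control, 16.7 in M0 with regorafenib, 23.5 in M1 control, 40.7 in M1 with regorafenib, 35.2 in M2 control and 11.8 in M2 with regorafenib. Its order of states turned with the treatment: among the controls M2 was highest and M1 lowest, and among the regorafenib libraries M1 was highest and M2 lowest. Regorafenib over control was, on the log2 scale, -0.64 (-0.80 to -0.48) in M0, 0.79 (0.65 to 0.94) in M1 and -1.58 (-1.76 to -1.41) in M2. The ratio in M2 alone passed the 2-fold threshold, as a level 2.99-fold lower. The M1 ratio exceeded the M2 ratio by 2.38 (2.15 to 2.60) and the M0 ratio by 1.43 (1.22 to 1.65).

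Cd80 was accordingly not a gene of one polarized state in these libraries. M1 over M0 was -0.15 (-0.30 to 0.01) without regorafenib and 1.29 with it, and M2 over M0 was 0.44 without and -0.50 with it. In edgeR the M1 value was 0.76 (adjusted p = 0.313) and the M2 value was 0.08 (adjusted p = 0.994).

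Cd86 (ENSMUSG00000022901.13, chr16:36603869-36666081, minus strand) differed between the states, and its regorafenib ratios had intervals that include 0. It stood at 3.09 CPM in M0 control and 2.88 with regorafenib, 34.4 in M1 control and 33.8 with regorafenib, and 0.959 in M2 control and 1.07 with regorafenib. The ranges of the 3 states did not overlap. The M1 ratio to M0 was 3.47 without and 3.55 with regorafenib, and Cd86 rose in M1 in edgeR by 3.57 (adjusted p = 0.000532). M2 over M0 was -1.69 without and -1.43 with regorafenib, and the edgeR value was -1.55 (adjusted p = 0.0859), a call that DESeq2 made (adjusted p = 0.000407, the lowest of a range to 0.163 over 4 alternatives). The regorafenib ratios were -0.10 (-0.53 to 0.32) in M0, -0.02 (-0.16 to 0.12) in M1 and 0.16 (-0.59 to 0.91) in M2. The interval in M2, from 35 and 30 counts, allows a change of up to 0.91 on the log2 scale.

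Per kilobase of exon, Cd80 was 8.30 times the level of Cd86 in M0 control, 0.676 times in M1 control and 36.3 times in M2 control. With regorafenib the quotient was 5.71 in M0, 1.19 in M1 and 10.8 in M2. Cd86 was thus the more abundant of the pair in M1 control. In M1 with regorafenib the order turned with the length used: per kilobase of the longest transcript Cd86 (13.3 CPM) stood above Cd80 (12.8 CPM). In the M0 and M2 libraries Cd80 was the more abundant.

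Icosl (ENSMUSG00000000732.9, chr10:78069302-78083913, plus strand), the ligand of ICOS, was the only member called higher with regorafenib in M1. It stood at 32.5 CPM in M0 control, 26.8 in M0 with regorafenib, 94.4 in M1 control, 233 in M1 with regorafenib, 6.11 in M2 control and 4.93 in M2 with regorafenib. The states did not overlap, with M1 highest and M2 lowest. The M1 ratio to control was 1.30 (1.23 to 1.37), a 2.46-fold higher level from 5604 counts against 2438. The ratios in M0 and M2 were -0.28 (-0.41 to -0.15) and -0.31 (-0.63 to 0.00), which differed from each other by -0.03 (-0.36 to 0.30). The M1 ratio to M0 was 1.54 without and 3.12 with regorafenib, and in edgeR Icosl rose in M1 by 2.45 (adjusted p = 0.00833). M2 over M0 was -2.41 without and -2.44 with regorafenib, with an edgeR adjusted p of 0.118 and a range over 4 alternatives of 7.52e-06 to 0.248.

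**Figure D2:**
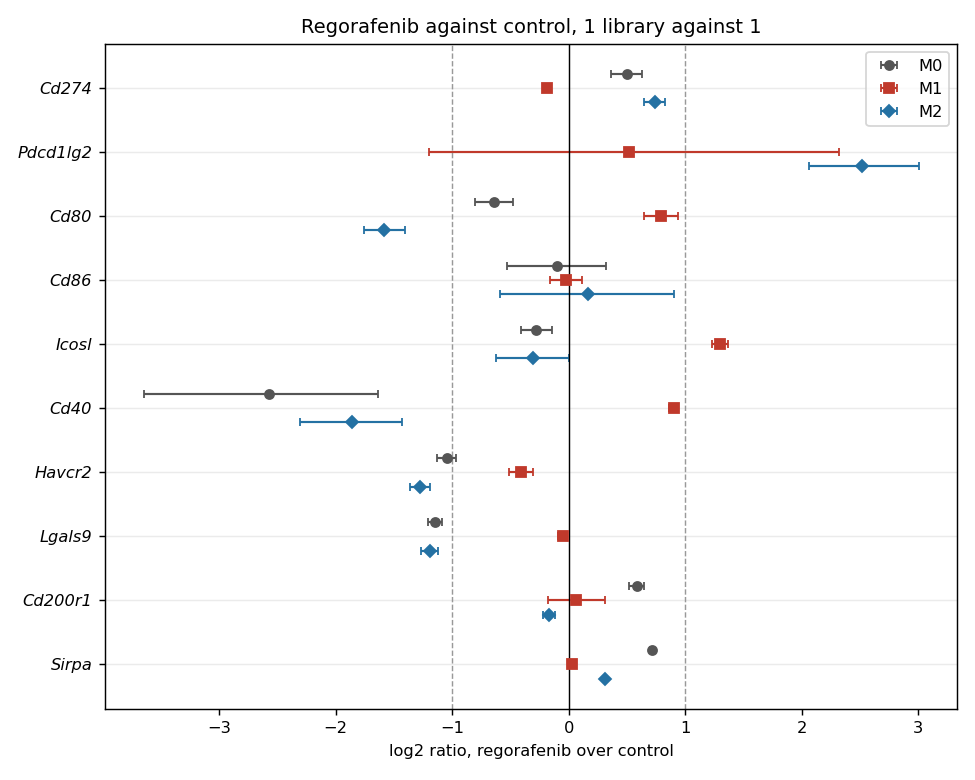
Log2 ratio of regorafenib to control (horizontal axis) for each gene in M0 (grey circles), M1 (red squares) and M2 (blue diamonds). Bars are 95% intervals of counting error and dashed lines mark a 2-fold difference. Pdcd1lg2 in M0 is left out because both libraries were at or under 3 counts. Cd80, Icosl and Cd40 lie to the right of 0 in M1 and to the left in M0 and M2, and Cd274 does the reverse.

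Cd40 (ENSMUSG00000017652.16, chr2:165055627-165072948, plus strand) had the widest range of the members after Pdcd1lg2 was set aside for its low counts. It had 61 counts in M0 control, 11 in M0 with regorafenib, 8957 in M1 control, 15600 in M1 with regorafenib, 260 in M2 control and 55 in M2 with regorafenib. These correspond to 1.99, 0.334, 347, 647, 7.12 and 1.97 CPM. Both M1 libraries lay far above the rest, while M2 with regorafenib was at the level of M0 control. M1 over M0 was 175-fold without regorafenib and 1940-fold with it (log2 10.92, 10.08 to 11.92), the latter from a denominator of 11 counts and at 8.93 on the log2 scale with 1 CPM added. In edgeR, Cd40 rose in M1 by 9.14 (adjusted p = 0.002).

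With regorafenib Cd40 was lower in M0 by a log2 ratio of -2.57 (-3.65 to -1.63) and in M2 by -1.86 (-2.30 to -1.43). The M0 value rests on 11 against 61 counts and was -1.16 with 1 CPM added. In M1 it was higher by 0.90 (0.86 to 0.94), a 1.87-fold level that is under the 2-fold threshold. The M1 ratio exceeded the M0 ratio by 3.47 (2.55 to 4.40) and the M2 ratio by 2.76 (2.34 to 3.18), while M2 and M0 differed by 0.72 (-0.30 to 1.73). M2 over M0 was 1.84 without and 2.56 with regorafenib, with an edgeR adjusted p of 0.548.

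The TIM-3 gene Havcr2 and its ligand gene Lgals9 were lower with regorafenib in the same states, M0 and M2. Havcr2 (ENSMUSG00000020399.14, chr11:46454935-46481255, plus strand) stood at 116 CPM in M0 control, 56.0 in M0 with regorafenib, 68.6 in M1 control, 51.6 in M1 with regorafenib, 130 in M2 control and 53.8 in M2 with regorafenib. Every regorafenib library lay below every control library. The log2 ratios were -1.05 (-1.13 to -0.96) in M0, -0.41 (-0.52 to -0.31) in M1 and -1.28 (-1.36 to -1.19) in M2. Upper quartile scaling moved the M0 value to -0.97, under the 2-fold threshold. The edgeR value across the states was -0.90 (unadjusted p = 0.00395, adjusted p = 0.315), and without the M1 libraries it was -1.14 with an adjusted p of 0.041. The fit without M1 called 386 of 13538 genes, and 32.6% had an unadjusted p under 0.05. Without the M0 libraries Havcr2 was at -0.83 (adjusted p = 0.542) and without the M2 libraries at -0.72 (adjusted p = 0.666). The range of the adjusted p over 7 alternatives was 0.0143 to 1.0. Havcr2 did not pass in M1 (-0.36, adjusted p = 0.284) or in M2 (0.07, adjusted p = 0.98).

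Lgals9 (ENSMUSG00000001123.15, chr11:78962974-78984946, minus strand) stood at 203 CPM in M0 control, 91.4 in M0 with regorafenib, 423 in M1 control, 408 in M1 with regorafenib, 154 in M2 control and 67.1 in M2 with regorafenib. Both M1 libraries lay above the others, and the regorafenib libraries of M0 and M2 lay below both controls of those states. The log2 ratios were -1.15 (-1.21 to -1.09) in M0, -0.05 (-0.09 to -0.01) in M1 and -1.19 (-1.27 to -1.12) in M2. The ratios of M2 and M0 differed by -0.05 (-0.14 to 0.05), and that of M1 exceeded them by 1.14 and 1.10. Across the states edgeR gave -0.79 (unadjusted p = 0.0233, adjusted p = 0.396), and without the M1 libraries -1.15 with an adjusted p of 0.0401, in a range of 0.0401 to 1.0 over 7 alternatives. The fit without M1 is the one that called 386 of 13538 genes. Lgals9 was at -0.60 (adjusted p = 0.9999) without the M0 libraries and at -0.59 (adjusted p = 0.976) without the M2 libraries. M1 over M0 was 1.06 without and 2.16 with regorafenib, the first of which was 0.62 with total count scaling, under the 2-fold threshold. Lgals9 rose in M1 in edgeR by 1.71 (adjusted p = 0.0101), a call lost without the treatment term (adjusted p = 0.0636 in a range of 7.23e-06 to 0.0636 over 4 alternatives).

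The inhibitory receptor Cd200r1 (ENSMUSG00000022667.18, chr16:44765736-44794978, plus strand) was the only member that passed as lower in M1 in edgeR. It stood at 116 CPM in M0 control, 174 in M0 with regorafenib, 10.8 in M1 control, 11.3 in M1 with regorafenib, 209 in M2 control and 185 in M2 with regorafenib. Both M1 libraries lay below the rest, and both M2 libraries lay above both M0 libraries. Against M0, M1 was at -3.42 without and -3.94 with regorafenib, and the edgeR value was -3.64 (adjusted p = 0.00056). M2 over M0 was 0.85 without and 0.09 with regorafenib (edgeR adjusted p = 0.623). The regorafenib ratio was 0.58 (0.52 to 0.64) in M0, 0.06 (-0.18 to 0.31) in M1 and -0.17 (-0.22 to -0.12) in M2, so its sign differed between M0 and M2 by -0.75 (-0.83 to -0.68).

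Sirpa (ENSMUSG00000037902.18, chr2:129592835-129632228, plus strand) was the most abundant member per kilobase in all 6 libraries and varied the least. It stood at 1576 CPM in M0 control, 2580 in M0 with regorafenib, 2616 in M1 control, 2668 in M1 with regorafenib, 1797 in M2 control and 2227 in M2 with regorafenib. The regorafenib ratio was 0.71 (0.69 to 0.73) in M0, 0.03 in M1 and 0.31 (0.29 to 0.33) in M2. Against M0, M1 was at 0.73 without and 0.05 with regorafenib, and edgeR gave 0.45 (adjusted p = 0.214). Its ligand gene Cd47, on the same fit, rose in M1 by 1.18 (adjusted p = 0.00357).

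**Figure D3:**
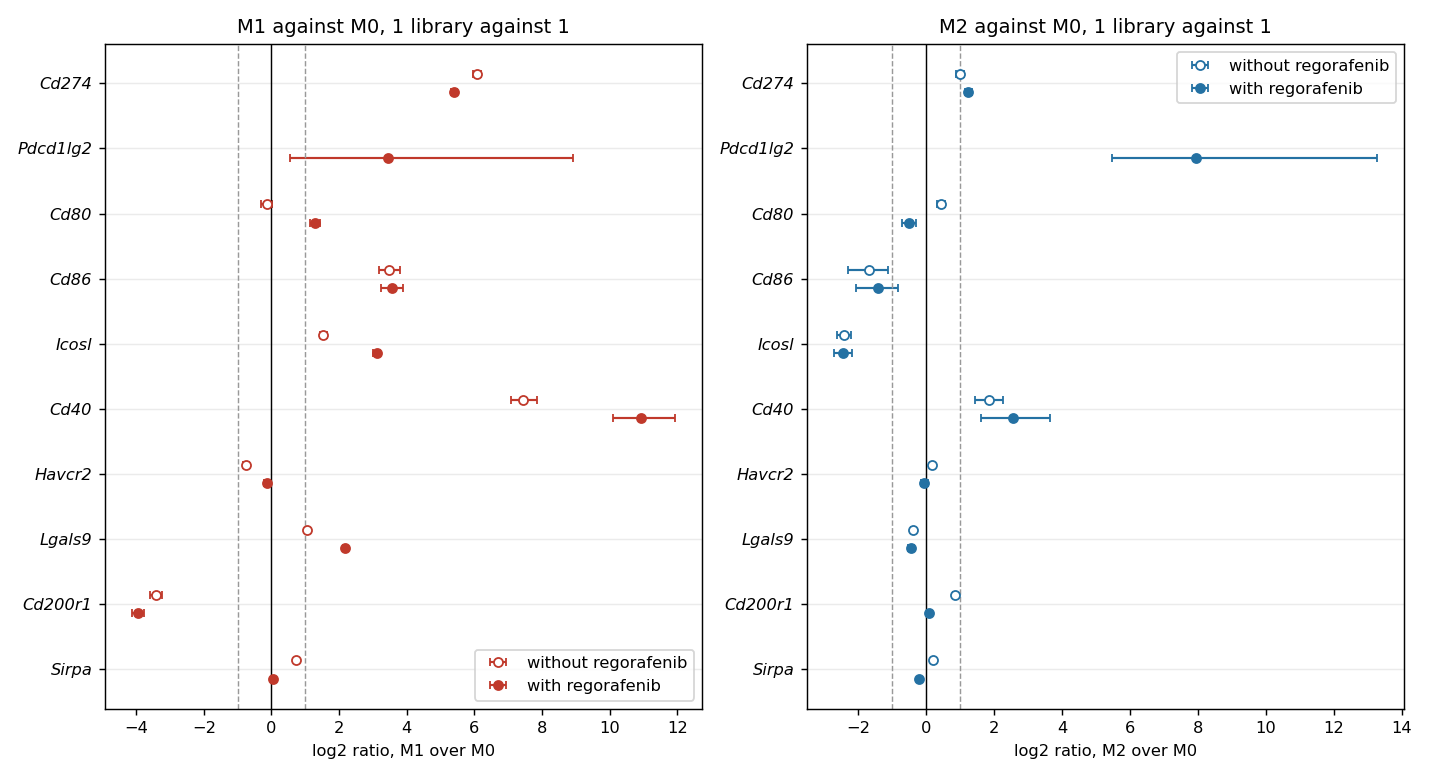
Log2 ratio of M1 to M0 (left) and of M2 to M0 (right) for each gene, without regorafenib (open circles) and with it (filled circles). Bars are 95% intervals of counting error and dashed lines mark a 2-fold difference. Pdcd1lg2 without regorafenib is left out because the M0 library had 0 counts. Cd40 and Cd274 lie farthest to the right in M1 among members with more than 10 counts in both libraries, and Cd200r1 lies to the left.

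Between genes, levels were compared per kilobase of exon. In M0 control the order ran from Sirpa (321 CPM per kilobase) through Lgals9 (94.8), Havcr2 (42.5), Cd200r1 (34.7), Icosl (7.03), Cd80 (7.02), Cd274 (6.90), Cd86 (0.845) and Cd40 (0.583) to Pdcd1lg2 at 0 counts. Icosl, Cd80 and Cd274 lay close together on this scale, and farther apart per kilobase of the longest transcript (11.5, 8.19 and 6.90). In M1 control Cd274 (465) moved to the second place after Sirpa (533), followed by Lgals9 (198) and Cd40 (102), and Cd200r1 (3.24) to the ninth. In M2 control Lgals9 (71.9) and Cd200r1 (62.3) followed Sirpa (366), and Cd86 (0.262) was last, under Pdcd1lg2 (0.670). With regorafenib Pdcd1lg2 reached the sixth place in M2 (3.85).

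Other ligands of T cell costimulation and inhibition moved in both directions. Of the 20 listed genes, most of them of the B7, TNF and SLAM families, 16 were tested, and 7 rose and 5 fell in M1 in edgeR. Their median log2 value was 1.11 beside -0.01 over all genes, of which 18.5% rose and 18.2% fell. Icam1 (2.43) and the enzyme gene Ido1 (3.28), which belong to none of these families, were among those that rose. Slamf1, a self-ligand of lymphocytes and myeloid cells, rose by 9.39 (adjusted p = 0.000275). With regorafenib 4 were called higher and 3 lower among 13 in M0, 0 and 1 among 16 in M1, and 4 and 1 among 13 in M2. Over all genes the shares called higher and lower were 9.47% and 10.9% in M0, 1.76% and 3.46% for the M1 pair, and 6.15% and 5.07% for the M2 pair, and the calls of the next lists are to be read beside the same shares. Vsir, which encodes the inhibitory ligand VISTA, had 6574 counts in M0 control and 16391 with regorafenib (log2 1.22), and 6959 and 11200 in M2 (1.07). Cd83, a maturation marker, was higher by 1.47 in M0 and 1.61 in M2. Tnfsf9, which encodes the 4-1BB ligand, was lower in M0 by -2.74, from 560 counts to 90, and was not called in M2 (-0.96).

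The list of nectins, galectins, CD47 and TIM genes had 6 members that rose and 5 that fell in M1 among 13 in edgeR (18.5% and 18.2% of all genes), with a median of 0.67. Cd200, the ligand gene of Cd200r1, rose by 5.46 (adjusted p = 0.000472), in the state in which Cd200r1 fell. With regorafenib 2 were called higher and 3 lower among 12 in M0, 1 and 0 among 13 in M1, and 1 and 1 among 12 in M2. Thbs1, another CD47 ligand, had 62 counts in M0 control and 334 with regorafenib (2.33, 1.93 to 2.74). Lgals1 was lower in M0 (-1.09) and in M2 (-1.01), as Lgals9 was.

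Of a list of other inhibitory molecules of macrophages, most of them receptors, 14 of 15 symbols were found, and 4 rose and 3 fell in M1 among 13 tested (18.5% and 18.2% of all genes), with a median of -0.42. Laptm5, a lysosomal protein gene and not a receptor, was among those that fell. Pilra rose by 5.38 (adjusted p = 0.00121) and Cd300a fell by 4.87 (adjusted p = 0.00122). With regorafenib 2 were called higher and 2 lower among 13 in M0, 0 and 2 among 13 in M1, and 0 and 2 among 12 in M2, with the M0 counts near the shares over all genes. Pilra was lower in both M0 (-1.51) and M2 (-1.62), and Cd5l, which encodes a secreted macrophage protein, was lower by -2.87 in M0 and -2.64 in M2.

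Among 16 listed genes, most of them of receptors that lymphocytes use, Pdcd1, Ctla4 and Cd40lg had 0 counts in all 6 libraries. In M1, 1 of 5 tested rose and 3 fell (18.5% and 18.2% of all genes), with a median of -1.68. Cd200r4, a gene of the CD200 receptor family, was among those that fell. Tnfrsf9, which encodes 4-1BB, rose by 8.76 (adjusted p = 0.000729). Cd28, the T cell receptor of CD80 and CD86, was read in these macrophage cultures: 825 counts in M0 control, 3840 in M0 with regorafenib, 16 and 10 in M1, 504 in M2 control and 1156 in M2 with regorafenib. Its M1 value in edgeR was -6.71 (adjusted p = 0.00124), and its regorafenib ratio was 2.12 (2.01 to 2.23) in M0 and 1.58 (1.43 to 1.74) in M2. Of the 8 T and NK cell markers, 5 with Cd3d, Cd3e and Cd3g among them were at 0 in the same libraries and Trac had at most 1 count. Cd4 had 4 counts in M0 control and 22 with regorafenib, and 1 and 7 in M2, and its part in the Cd28 values was not tested. With regorafenib 2 genes of the list were called higher and 0 lower among 4 in M0, 0 and 0 among 4 in M1, and 1 and 1 among 4 in M2.

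Among 17 adaptors and phosphatases downstream of the members, 9 rose and 1 fell in M1 (18.5% and 18.2% of all genes), with a median of 0.52. Traf1 rose by 4.33 (adjusted p = 0.000729) and Nfkb2, the non-canonical NF-κB gene downstream of CD40, by 2.93 (adjusted p = 0.00039). With regorafenib 2 were called higher and 1 lower in each of M0 and M2, and 0 in M1, with the M0 counts near the shares over all genes. The genes called in both states were Birc3, Relb and Dok2. Birc3 was higher by 1.39 and 1.65, Relb, another non-canonical NF-κB gene, by 1.23 and 1.80, and Dok2, an adaptor of the CD200 receptor, was lower by -2.51 and -1.42.

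Among 17 transcription factors and kinases known to act on such genes, 9 rose and 1 fell in M1 (18.5% and 18.2% of all genes), with a median of 0.97, and 1 rose in M2, where 0.198% of all genes passed. Jak2 rose by 4.40 (adjusted p = 0.000303) and Irf1, an activator of Cd274, by 3.78 (adjusted p = 0.00271). Irf4, an IL4-induced factor, rose in M2 by 3.62 (adjusted p = 0.0124) and fell in M1. With regorafenib 2 were called higher and 2 lower in M0, 3 were called higher and 0 lower in M2, and 0 were called in M1. Ciita, the master regulator of MHC class II genes, had 47 counts in M0 control and 686 with regorafenib (3.77), 495 in each M1 library, and from 154 to 1144 in M2 (3.28). Irf7, an interferon-induced factor, was lower in M0 by -1.89, from 6147 counts to 1778. Irf1 was higher by 1.64 in M2. Of all genes tested in these 6 lists, Irf4 was the one that passed in edgeR for M2 against M0.

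**Figure D4:**
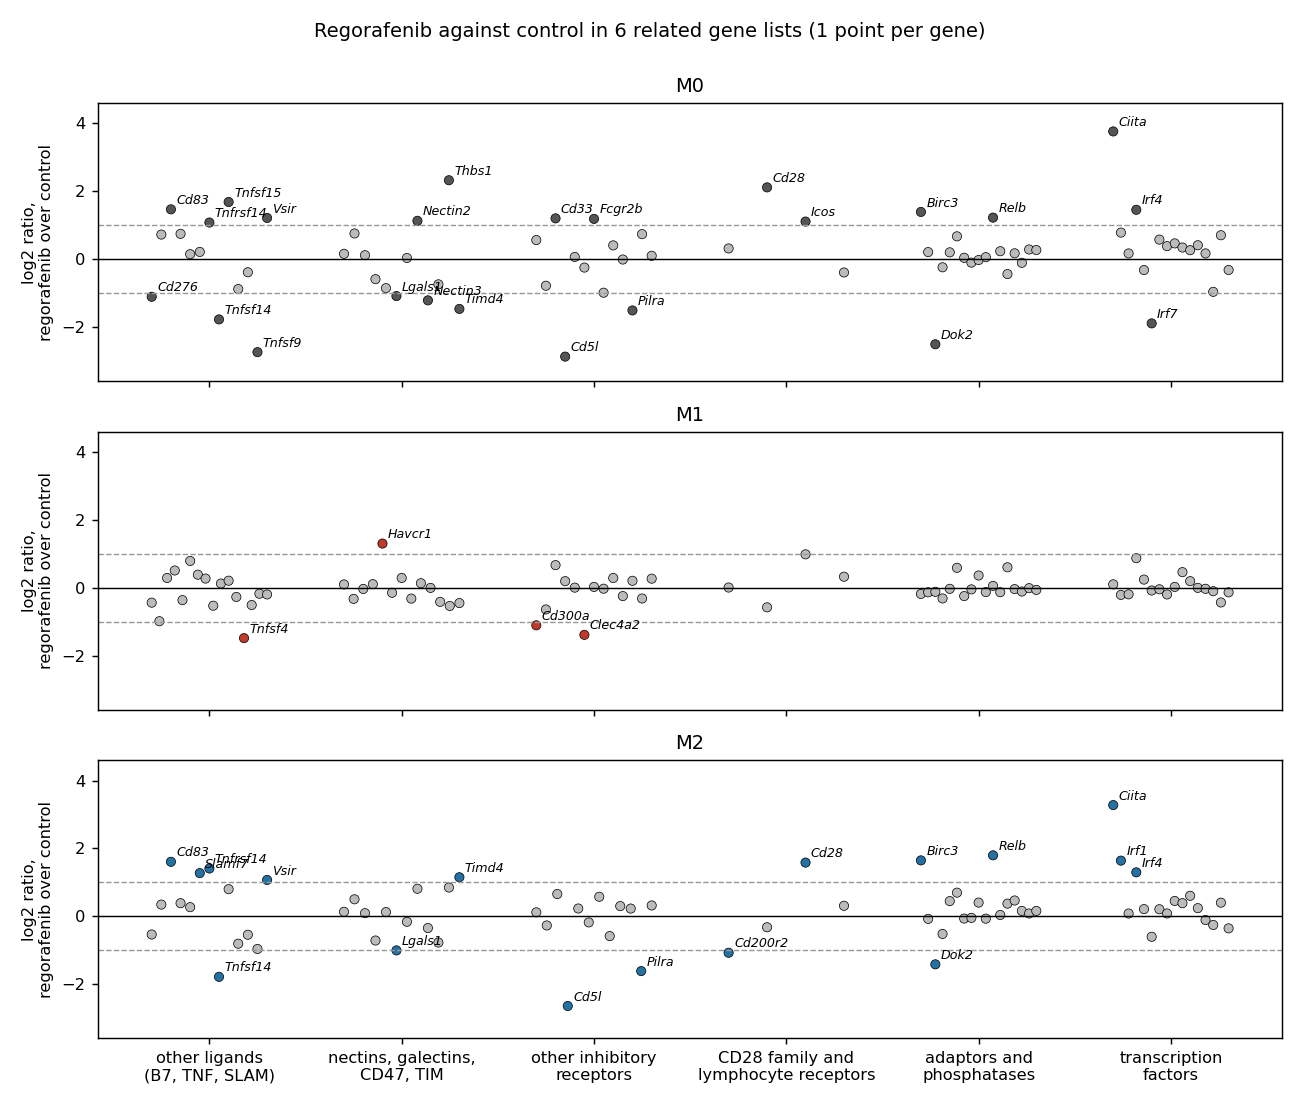
Log2 ratio of regorafenib to control (vertical axis) for each gene of 6 related lists (horizontal axis) that reached 10 counts in the pair, in M0, M1 and M2 from top to bottom. Each point is 1 gene (1 transcription factor is not plotted), coloured and named where the libraries were 2-fold or more apart (dashed lines). In M1, 4 genes are named over all lists (Tnfsf4, Havcr1, Cd300a and Clec4a2).

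For each member the 2 genes with the closest profile over the 6 libraries were taken from 11303 genes that reached 100 counts in 1 or more libraries, by the root mean square (RMS) difference of centred log2 CPM. This is a description over 6 libraries. Sirpa was matched most closely, by Wipi2 (0.0287) and Frs2 (0.0498), and Pdcd1lg2 least closely, by Ocstamp (1.07) and Itgax (1.40). Lgals9 lay nearest to Pdlim7 (0.161) and to the interferon-induced Oas1a (0.175), which had 3767 and 1480 counts in M0 (control and regorafenib), 7157 and 6549 in M1, and then 2777 and 1050 in M2. Havcr2 lay nearest to Gipc2 (0.12) and Pmp22 (0.132), Cd86 to Isg20 (0.237) and the inflammasome gene Nlrp3 (0.252), and Cd274 to the cystine transporter gene Slc7a11 (0.239) and Gm6532 (0.323). Cd40 was nearest to Tnfrsf9 (0.853) and A730020E08Rik (0.889), Cd200r1 to Gdf3 (0.23) and Fabp4 (0.259), Icosl to Txlnb (0.442) and Marcksl1 (0.466), and Cd80 to Acy1 (0.187) and 4930430E12Rik (0.213).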

How the data were processed

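RNA of 6 BMDM cultures was sequenced with a stranded mRNA kit as paired reads of 100 bases. By the submitters' processing notes and methods, the authors used cutadapt 2.4 for trimming and STAR 2.7.2a for mapping to GRCm38, and deposited whole-number counts per gene on Gencode M19. The strand column of STAR is not given in the sources used here. Of 54446 gene IDs, 53229 matched Gencode M21 with their version, 1180 without it, and 37 stayed unnamed. Libraries were scaled by TMM in edgeR 4.0.16 (R 4.3.3), with factors from 0.820 to 1.12. A count of 0 was replaced by 0.5 for ratios, and 3 counts were taken as the floor. The study's no-replicate calls rest on simulated replicates and were replaced by the 2-fold call. The additive model used genes kept by filterByExpr, with DESeq2 1.42.0 as an alternative. Intervals and promoters were computed in Python 3.11.15. RefSeq promoters covered 6 of 10 members. The intervals and the additive model were run on simulated counts. Those counts held no difference between states in the response to regorafenib, and the interval run held counting error only. These runs therefore do not show how the methods behave with the spread of the real data. No member shared a 100-base word with another gene. The text names the 10 members, genes of the lists where a list is described, and the 2 closest profiles per member. The members and lists were chosen with earlier results of these data known. 1 marker gene and 1 gene of a list are not reported here.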

Additional observations from a re-analysis of the deposited data

Results flagged for a closer look

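Regorafenib ratios of 5 members had opposite signs in a pair of states, with intervals of counting error that excluded 0. The differences were not tested, since each condition has 1 library. Values are differences of log2 ratios. Against M0, the ratio in M1 differed by -0.69 for Cd274, 1.43 for Cd80, 3.47 for Cd40 and 1.58 for Icosl. Against M2, the ratio in M1 differed by -0.93 for Cd274, 2.38 for Cd80 and 2.76 for Cd40. For Cd200r1 the ratio in M2 differed from that in M0 by -0.75.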

How the results depend on the processing

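Of 276 member ratios under another scaling or with 1 CPM added (69 ratios), 274 kept their sign and 266 their side of the 2-fold threshold. Total count scaling turned Cd86 in M1 with regorafenib to 0.02 and Sirpa in M1 against M0 with regorafenib to -0.36, and gave Lgals9 0.62, Havcr2 -1.19 and (with regorafenib) Cd80 0.88 in M1 against M0. It moved the median of all genes in M1 against M0 to -0.49 without and -0.51 with regorafenib. Among the called genes, the part that was higher went from 46.8% to 30.3% without and from 43.1% to 27.7% with regorafenib. Genes called for regorafenib were 2851 in M0, 701 in M1 and 1551 in M2. Without a filter they were 6688, 4139 and 5275, with at least 50 counts 1875, 235 and 813, with 1 CPM added 1495, 154 and 565, and at 1.5-fold 5474, 1796 and 3490. At 1.5-fold 5 members were called in M0 and 3 in M1. Without a filter M1 against M0 had 9577 (without regorafenib) and 9484 (with) against 5263 and 5367. M2 against M0 had 1700 without and 1328 with regorafenib; the same 4 settings gave 5387, 1008, 780 and 3272 and 4953, 641, 451 and 2876. In the additive model M2 had 28 genes and 0 members, against 416 and 4 with DESeq2, 408 and 4 without a filter, and 0 genes without the treatment term. Regorafenib had 0 genes, against 301 with DESeq2, 333 without a filter and 386 without the M1 libraries, with 1, 1 and 2 members. Its sign turned for Cd274 (-0.14) and Cd40 (0.88) without the state term, for Cd80 without M2 (0.0836), for Cd200r1 without M0 (-0.0409) and for Icosl without M1 (-0.27). For Cd86 it turned with DESeq2 (-0.0046), RLE (-1.84e-05), no filter (-0.0025), no state term (-0.0181) and without M2 (-0.0535). With 1 CPM added, low-count ratios shrank by over 1.5 times: for Cd40 to -1.16 (regorafenib in M0), 8.93 (M1 against M0) and 1.15 (M2 against M0, both with regorafenib), for Cd86 to -1.06 (M2 against M0 without), and for Pdcd1lg2 to 1.88 (regorafenib in M2), 0.30 and 0.37 (M1 against M0 without and with) and 1.21 and 3.05 (M2 against M0). It also took Cd86 in M2 against M0 with regorafenib to -0.91, under the 2-fold threshold. No replicate could be left out, and no block beyond the state term of the additive model could be fitted, since each condition has 1 library. The cause of these changes was not tested, and levels under 10 counts, such as Pdcd1lg2 in M0 and M1, limit how firmly a direction can be read.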
